A study of Rattus norvegicus with 6 samples.

Results

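Serpins and cystatins, large families of vertebrate protease inhibitors, were examined in the rat inferior alveolar nerve (IAN), the sensory branch of the trigeminal nerve that runs through the lower jaw to the lip. Their genes were chosen by name: a serpin gene of clades a to i, or a cystatin gene with a number, a or b. The members reported are 48 such genes, 38 serpins and 10 cystatins, of the 34106 genes in the count table. The groups were 3 IANX and 3 Sham libraries of bulk poly-A RNA, numbered 1 to 3 in each group, on day 14 after surgery, from male Sprague-Dawley rats that were 6 to 7 weeks old when obtained. In IANX rats the left IAN and mental nerve were cut and not sutured; in Sham rats the cheek skin and masseter muscle were cut and the nerve was left whole. The sample labels give the IANX treatment as "transfection" and that of Sham as "none". In Sham rats, as the surgery is described, no bone over the nerve was opened, so that transection and opening of the jaw bone cannot be told apart.

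Most serpins trap a serine protease by offering it a loop as bait, after which the serpin folds around and inactivates the enzyme, so that 1 inhibitor molecule is spent for each protease. Some serpins have lost this activity and act as chaperones, hormone carriers or signaling proteins. Cystatins block cysteine proteases, such as the lysosomal cathepsins, by sitting reversibly in the active site. In an injured nerve, proteases of the plasminogen system and cathepsins take part in clearing myelin and matrix, and their inhibitors set how far that goes.

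The IANX libraries held 13988750 to 16440720 counts and the Sham libraries 14630127 to 17105402. IANX 2 stood apart: across genes, log2 CPM correlated at 0.902 and 0.914 between it and the other IANX libraries, against 0.959 between IANX 1 and IANX 3 and 0.968 to 0.974 among Sham libraries. The 9 enamel and dentin markers had summed levels of 56080, 1950 and 60770 TMM-normalized CPM (counts scaled to library size, as all CPM here) in IANX 1, 2 and 3. In Sham they had 129 to 876 CPM. Of the 7 tested, 6 were called higher in IANX, where 17.8% of all tested genes were. Of these, Enam was tested only through its IANX counts. For the 16 markers of keratinized and oral epithelium the sums were 2017, 47.5 and 4451 CPM in IANX 1, 2 and 3, against 395 to 480 CPM in Sham, where Cdh1 made up most of the sum. The 9 Schwann cell markers, which define the tissue, were detected in every library and summed to 3889 to 14600 CPM in IANX and 160700 to 213800 CPM in Sham. In such bulk tissue, fewer cells of a type and less RNA per cell cannot be told apart.

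Of the 48 members, 19 had enough counts to be tested (15 serpins and 4 cystatins). Another 16 had counts too low for the filter, and 13 had none in any library. Among the 19, 6 rose after transection and 1 fell, while 12 did not pass an adjusted p of 0.05 in the quasi-likelihood test of edgeR. The 6 that rose were Serpinb1a, Serpinb5, Serpinb8, Serpinb9, Serpinb12 and Cst7, all by over 2-fold. The 1 that fell was Cst3, also by over 2-fold. Over all 15374 tested genes, 17.8% were called higher and 16.6% lower, and 13.1% were called higher and 10.8% lower by over 2-fold. The median log2 fold change was 1.30 over the 19 members, against 0.08 over all tested genes. Both the count and the median include members that passed the filter on low counts only through the IANX libraries where they were high. These were Serpinb5, Serpinb8 and Serpinb12, which were called, and Serpinb10, Serpinf2 and Serpini1, which were not. Neither the count nor the median is therefore read as a difference between the members and other genes. Every IANX library lay above every Sham library for 10 members and below for 1, where 27% and 24.5% of all tested genes showed these patterns. Leaving out 1 library at a time gave 3 to 9 members higher and 0 to 3 lower, with 3 higher without Sham 2, 4 higher without Sham 3, 9 higher and 3 lower without IANX 2, and 0 lower without IANX 3, Sham 2 or Sham 3.

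**Figure D1:**
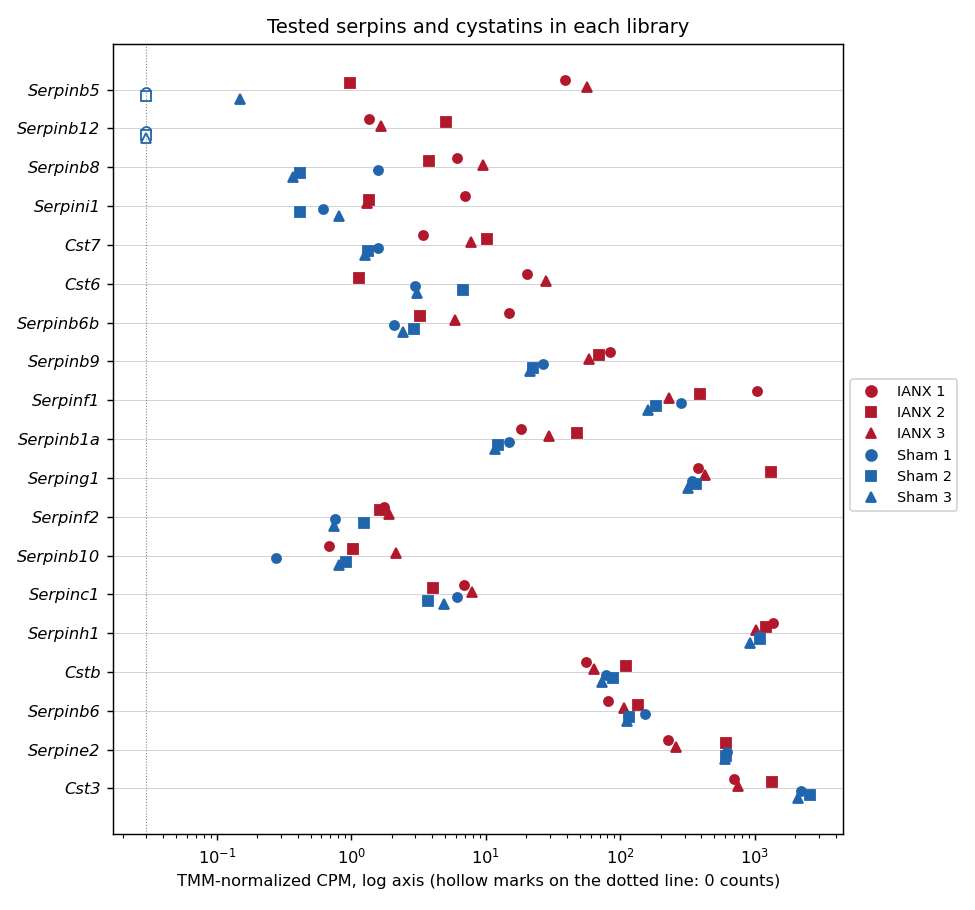
TMM-normalized CPM on a log axis of the 19 tested members in each of 3 IANX (red) and 3 Sham (blue) libraries, ordered by log2 fold change; hollow marks on the dotted line are libraries with 0 counts. Every IANX library lay above every Sham library for 10 members and below for Cst3, and IANX 2 was the highest IANX library for 8.

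Cst3, which encodes cystatin C, the main secreted inhibitor of cathepsins, was the most abundant member and fell. Its level was 702, 1345 and 751 CPM in IANX 1, 2 and 3, and 2187, 2566 and 2096 CPM in Sham 1, 2 and 3. All IANX libraries lay below all Sham libraries, and IANX 2 was the closest to Sham. This was a log2 fold change of -1.29 (SE 0.305, adjusted p = 0.0169), or a level 2.45-fold lower in IANX. The call was lost without IANX 3 (adjusted p = 0.0635), without Sham 2 (0.0683) and without Sham 3 (0.0522), where the log2 fold change was -1.16, -1.20 and -1.35. Per gene length, the authors' FPKM of Cst3 averaged 1172 ± 475 in IANX and 2938 ± 340 in Sham (SD, n = 3 each).

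Cst7, which encodes cystatin F, an inhibitor of immune cell lysosomes and granules, rose while Cst3 fell. It had 3.40, 10.1 and 7.76 CPM in IANX 1, 2 and 3, against 1.59, 1.33 and 1.25 CPM in Sham 1, 2 and 3. The groups did not overlap, and IANX 1 was the lowest of the injured nerves. On the log2 scale the fold change was 2.34 (SE 0.458, adjusted p = 0.00892), or 5.07-fold. Cst7 remained far below Cst3 in FPKM, and Cst3 made up 87.3 to 90.4% of all cystatin FPKM in IANX and 95.6 to 95.7% in Sham. Together, 12 macrophage markers reached 748, 1862 and 872 CPM in IANX 1, 2 and 3, against 443 to 518 CPM in Sham. Of the 12, 5 were called higher, where 17.8% of all tested genes were. The part of these markers in the change of Cst7 was not tested.

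The other cystatins with enough counts to be tested were Cst6 and Cstb. Cst6 encodes cystatin E/M, an inhibitor of cathepsin L and legumain known from skin and other epithelia. It had 20.2, 1.14 and 27.8 CPM in IANX 1, 2 and 3, and 2.97, 6.75 and 3.10 CPM in Sham 1, 2 and 3. The IANX libraries thus spanned 24.3-fold, with IANX 1 and 3 above every Sham library and IANX 2 below. Over all libraries the log2 fold change was 1.94 (SE 0.941) and was not called (adjusted p = 0.147); it was 2.48 without IANX 2 (0.00204) and 1.30 without IANX 3 (0.370), and IANX 2 alone stood at -1.87 against Sham (0.0811). The epithelial marker Krt14 had the same order of libraries within IANX, with 314, 1.58 and 630 CPM in IANX 1, 2 and 3 and 0.22 to 1.17 CPM in Sham, and the part of epithelium in the level of Cst6 was not tested. Cstb, the cytosolic cystatin B, had 55.8, 110 and 63.8 CPM in IANX and 78.1, 88.0 and 73.2 CPM in Sham. The Sham range lay within that of IANX, the log2 fold change was -0.06 (SE 0.263, adjusted p = 0.880), and its 95% interval ran from -0.67 to 0.56. Without IANX 2, Cstb was called lower at -0.44 (adjusted p = 0.0404).

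Of 10 cysteine cathepsins and legumain, the enzymes that cystatins block, 4 rose, 1 fell and 5 were not called, with a median log2 fold change of 0.74, where 17.8% of all tested genes were called higher. The number that rose was 0 without Sham 2 or Sham 3 and 2 without Sham 1. Ctsk, the collagen-cutting cathepsin of osteoclasts, rose by 1.67 on the log2 scale (SE 0.494, adjusted p = 0.0366), and by 1.08 without IANX 2, where it was not called (0.0506), as without IANX 3 (0.0582). Ctss, the cathepsin S of antigen-presenting cells and macrophages, had 51.3, 126 and 45.8 CPM in IANX and 25.2, 21.6 and 27.3 CPM in Sham (log2 fold change 1.59, SE 0.391, adjusted p = 0.0194). Its call was lost without Sham 1 (0.0625), Sham 2 (0.0846) or Sham 3 (0.0603), and without IANX 2 it was called at 0.95. Lgmn, the asparaginyl protease legumain, rose by 0.82 (adjusted p = 0.0323) and Ctsl, cathepsin L, by 0.67 (0.0306), while Ctsf, cathepsin F, had a log2 fold change of -1.07 (0.00944). Lgmn was not called without IANX 1 (0.0511) or Sham 1 (0.0942), nor was Ctsl without IANX 1 (0.0744).

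Summed over genes, the balance of inhibitor to enzyme messages was separate in the groups. The FPKM of the 10 cystatins summed to 979, 1902 and 1064 in IANX 1, 2 and 3, and to 2935, 3475 and 2803 in Sham 1, 2 and 3. The FPKM of the 10 cysteine proteases summed to 964, 1954 and 1162 in IANX and to 921, 838 and 848 in Sham. Cystatin FPKM divided by protease FPKM was 1.02, 0.973 and 0.915 in IANX 1, 2 and 3, against 3.19, 4.15 and 3.31 in Sham 1, 2 and 3. IANX 2 had the highest sum of both among the injured nerves, but a ratio between those of IANX 1 and IANX 3. The ratio is a description of mRNA levels, was not tested and rests on Cst3 for most of its numerator.

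**Figure D2:**
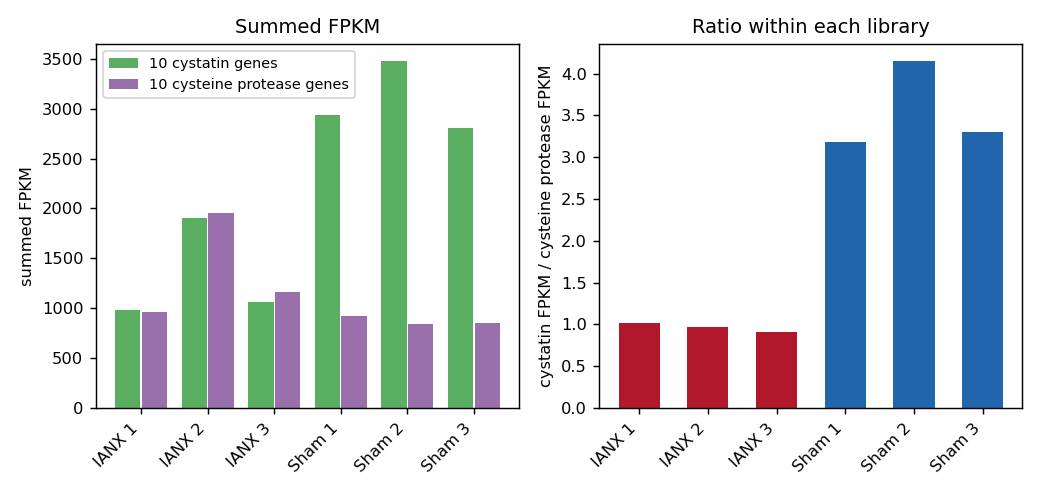
Left, FPKM summed over the 10 cystatin genes (green) and over 10 cysteine cathepsins and legumain (purple) in each library; right, the ratio of these sums, with IANX in red and Sham in blue. The ratio was 0.915 to 1.02 in IANX and 3.19 to 4.15 in Sham.

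Serpine2, which encodes protease nexin 1, an inhibitor of thrombin and the plasminogen activators, had 225, 615 and 257 CPM in IANX 1, 2 and 3. It had 622, 611 and 604 CPM in Sham 1, 2 and 3. IANX 1 and IANX 3 were well below Sham, and IANX 2 was within the Sham range. Its log2 fold change of -0.74 (SE 0.380) was not called (adjusted p = 0.164). Without IANX 2 it was -1.36 and called (0.000408), while IANX 2 alone stood at 0.02 (0.941). Serpine2 made up 5.89 to 14.3% of the summed FPKM of the reported serpins in IANX and 22.1 to 25.6% in Sham.

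Of the other inhibitors of fibrinolysis and clotting, Serpinf2 (alpha-2-antiplasmin, the plasmin inhibitor) averaged 1.76 ± 0.131 CPM in IANX and 0.916 ± 0.289 CPM in Sham (SD, n = 3 each). The groups did not overlap, but the log2 fold change of 0.94 was not called (adjusted p = 0.102). Serpinc1, which encodes antithrombin, averaged 6.29 ± 2.03 CPM in IANX and 4.92 ± 1.20 CPM in Sham (log2 fold change 0.35, adjusted p = 0.465). Serpini1, the neuronal inhibitor neuroserpin of tissue plasminogen activator, had 6.96, 1.36 and 1.30 CPM in IANX 1, 2 and 3 and 0.621, 0.416 and 0.812 CPM in Sham. All IANX libraries were above Sham, though IANX 1 was far above the other two; the log2 fold change of 2.36 (SE 0.778) missed the threshold (adjusted p = 0.0512) and passed it without IANX 2 (0.0207) or without IANX 3 (0.0445). Without IANX 1 it was 1.09 (0.167).

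Of the proteases that serpins bind, 19 were tested, and 4 rose and 0 fell, a share near the 17.8% of all tested genes that were called higher, with a median log2 fold change of 0.43. The count was 2 without Sham 1, Sham 2 or Sham 3, and 6 higher and 4 lower without IANX 2. Plau, the urokinase that activates plasminogen, had 8.83, 21.8 and 8.53 CPM in IANX and 4.21, 3.67 and 3.69 CPM in Sham (log2 fold change 1.76, SE 0.416, adjusted p = 0.0169). Its call was lost without Sham 1 (0.0525), Sham 2 (0.0693) or Sham 3 (0.0656), and without IANX 2 it was called at 1.15. Plat, the tissue plasminogen activator, averaged 175 CPM in IANX and 120 CPM in Sham and was not called (log2 fold change 0.54, adjusted p = 0.342). The others that rose were Masp1, a protease of the lectin pathway of complement (2.92, adjusted p = 0.00768), St14, the epithelial protease matriptase (2.30, 0.00325), and F10, coagulation factor X (1.86, 0.0289). F10 was called in no leave-out but that of IANX 2. By its Sham counts alone, F10 would not have passed the filter on low counts. Among 10 receptors and cofactors of serpins, 4 rose and 3 fell, where 17.8% of all tested genes were called higher and 16.6% lower. Plaur, the urokinase receptor, had a log2 fold change of 2.24 (adjusted p = 0.00878), and Vtn, the adhesive matrix and plasma protein vitronectin, of -1.68 (0.0160). Sdc1 (3.74, 0.00270), Gpc1 (1.75, 0.0146) and Sdc4 (-0.83, 0.0169) encode heparan sulfate carriers, and Vldlr (1.29, 0.0297) and Lrp2 (-2.72, 0.00364) encode receptors of the LDL receptor family. Lrp1, the receptor that clears many serpin complexes, stood at -0.04 (0.887). Of these 7 calls, Sdc1, Plaur and Lrp2 held without any 1 library, while Vldlr was lost without any but IANX 2, Gpc1 without Sham 2 or Sham 3, Vtn without IANX 3 or Sham 2, and Sdc4 without IANX 3, Sham 2 or Sham 3.

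The clade b serpins work mainly inside cells. Serpinb9, which protects cells from granzyme B, rose with the smallest SE of the 7 called members. Its level was 83.6, 69.7 and 58.3 CPM in IANX 1, 2 and 3, against 26.6, 22.5 and 21.2 CPM in Sham 1, 2 and 3. The groups were well separated, and the log2 fold change was 1.59 (SE 0.186, adjusted p = 0.00144), or 3.01-fold, called under each of the alternatives run. Of 4 tested markers of cytotoxic lymphocytes, Cd3e, Cd8a and Prf1 were called higher, by 2.29, 2.86 and 2.22 on the log2 scale. Of all tested genes, 17.8% were called higher. None of these 3 markers exceeded 7.35 CPM in any library, and Nkg7 was not called (1.39, adjusted p = 0.122). Cd3e, Cd8a, Prf1 and Nkg7 would not have passed the filter on low counts by their Sham counts alone. The target protease Gzmb, listed under a pair of gene IDs, was at or near 0 counts in all libraries.

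Serpinb1a, which encodes an inhibitor of neutrophil elastase and cathepsin G, had 18.3, 48.0 and 29.6 CPM in IANX 1, 2 and 3. It had 14.9, 12.2 and 11.7 CPM in Sham 1, 2 and 3. The groups did not overlap, but IANX 1 was close to Sham 1. The log2 fold change was 1.30 (SE 0.344, adjusted p = 0.0246), and the call was lost without IANX 3 (0.0537), Sham 1 (0.0572), Sham 2 (0.0924) or Sham 3 (0.0880). Its target proteases Elane and Ctsg were not called (log2 fold change -0.03 and 0.32). With IANX 2 alone against Sham, Serpinb1a stood at 1.90.

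Serpinb8, which in human cells inhibits the proprotein convertase furin, had 6.06, 3.76 and 9.48 CPM in IANX 1, 2 and 3, and 1.59, 0.416 and 0.369 CPM in Sham 1, 2 and 3. All IANX libraries were above all Sham libraries, and Sham 1 was the highest of its group. The log2 fold change was 2.99 (SE 0.651, adjusted p = 0.0129), or 7.95-fold. It was 4.01 without Sham 1 (0.0106) and 2.70 and no longer called without Sham 2 (0.0559), and IANX 2 alone stood at 2.23 (0.0669).

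Serpinb5 and Serpinb12 were nearly absent from Sham and passed the filter on low counts only through the IANX libraries. Serpinb5 encodes maspin, an epithelial serpin that does not inhibit proteases. It had 38.8, 0.98 and 56.3 CPM in IANX 1, 2 and 3, and 0, 0 and 0.15 CPM in Sham 1, 2 and 3. IANX 1 and 3 held nearly all of the 1653 IANX counts, against 2 counts in Sham, a ratio of 625 after scaling (95% exact interval 173 to 5170, counting error only). The fitted log2 fold change of 9.11 had an SE of 1.82 (adjusted p = 0.00961); it was 8.66 without Sham 2 (0.0529) and larger without Sham 3 (0.0530), where it was not called, was 8.40 without IANX 3 (0.0231) and was 4.09 in IANX 2 alone (0.0475). The 16 epithelial markers had the same order within IANX as a sum, at 2017, 47.5 and 4451 CPM. Of 12 tested, 9 were called higher, where 17.8% of all tested genes were. Of the 9, Dsg1, Dsg3, Dsp, Krt14, Perp, Pkp1 and Epcam would not have passed the filter by their Sham counts alone. Cdh1 stood at -1.38 and was not called (adjusted p = 0.208). The part of the epithelial markers, and that of the enamel and dentin markers, in the level of Serpinb5 was not tested.

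Serpinb12, which encodes an epithelial inhibitor of trypsin-like proteases, had 1.36, 5.07 and 1.66 CPM in IANX 1, 2 and 3 and no count in any Sham library. Unlike Serpinb5 and Cst6, it was highest in IANX 2. Its 145 IANX counts were set against 3 counts over all Sham libraries, the limit that no count allows. This gave a ratio of 36.6 after scaling, with no counting error taken for IANX. The exact interval of the count ratio, which covers counting error in both groups, started lower, at 29.4. In edgeR, Serpinb12 was called higher (adjusted p = 0.00838).

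**Figure D3:**
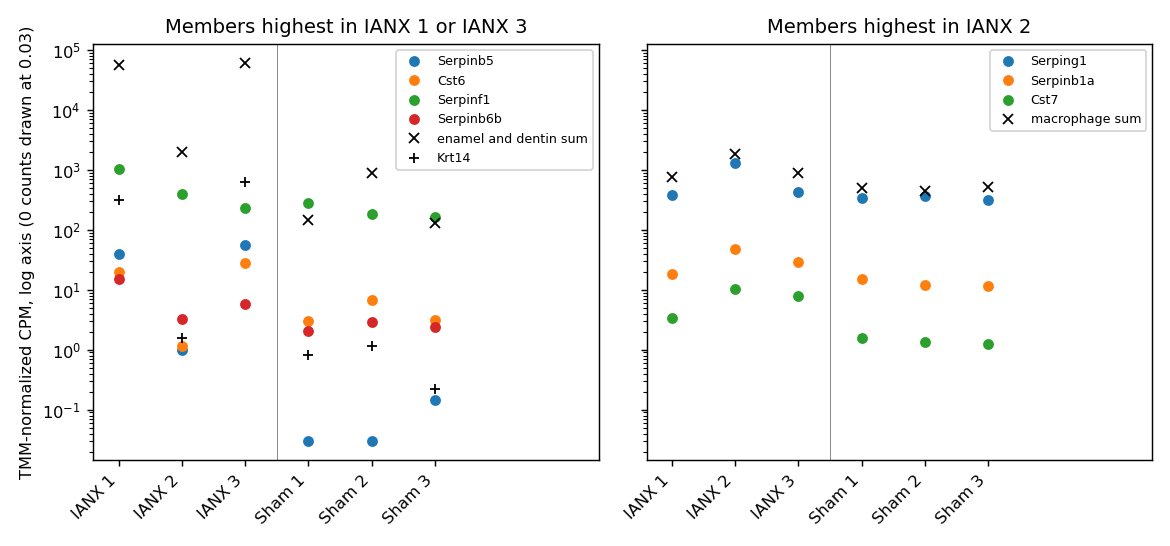
TMM-normalized CPM on a log axis, by library, for some members highest in IANX 1 or IANX 3 (left: Serpinb5, Cst6, Serpinf1 and Serpinb6b). On the right are Serping1, Serpinb1a and Cst7, from the 8 tested members highest in IANX 2. Marker genes are in black. Serpinb5 and Cst6 had their lowest IANX level in IANX 2, as did Krt14 and the enamel and dentin sum. Serping1, Serpinb1a and Cst7 were highest in IANX 2, as were the macrophage sum and the Schwann cell sum, which is not drawn.

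The remaining tested clade b serpins were not called. Serpinb6, a cytosolic inhibitor of cathepsin G, averaged 108 ± 27.4 CPM in IANX and 127 ± 21.6 CPM in Sham (SD, n = 3 each; log2 fold change -0.23, adjusted p = 0.460). Serpinb6b, its near copy, had 14.9, 3.21 and 5.87 CPM in IANX 1, 2 and 3 and 2.07, 2.92 and 2.44 CPM in Sham. Its IANX libraries were all above Sham, IANX 2 only slightly, and the log2 fold change of 1.69 (SE 0.565) missed the threshold (adjusted p = 0.0532) but passed it without IANX 2 (2.05, 0.00755), while without IANX 1 the value was 0.87 (0.170). Serpinb10, a serpin of blood-forming cells, had 1.28 ± 0.758 CPM in IANX and 0.668 ± 0.344 CPM in Sham (log2 fold change 0.94, adjusted p = 0.278). How reads shared by close relatives were assigned is not given in the sources used here, so the split between Serpinb6 and Serpinb6b, or Serpinb1a and Serpinb1b, is uncertain.

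Behind Cst3, the most abundant members by mean FPKM were Serpinh1, Serping1, Serpinf1 and Serpine2, and none of these passed the test. Serpinh1 encodes HSP47, a collagen chaperone of the endoplasmic reticulum that inhibits no protease. It had 1357, 1209 and 1013 CPM in IANX 1, 2 and 3, against 1076, 1087 and 912 CPM in Sham 1, 2 and 3. The groups overlapped, and the log2 fold change was 0.22 (SE 0.206, 95% interval -0.26 to 0.70, adjusted p = 0.438).

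Serping1 encodes the C1 inhibitor, which restrains complement C1r and C1s and the contact system. Its level was 375, 1320 and 429 CPM in IANX 1, 2 and 3, and 342, 362 and 320 CPM in Sham 1, 2 and 3. All IANX libraries were above Sham, IANX 1 and 3 by little and IANX 2 by far. Its log2 fold change of 1.05 (SE 0.471) was not called (adjusted p = 0.121), while IANX 2 alone stood at 1.96 (0.000213) and the value without IANX 2 was 0.22 (0.246). The target proteases C1s and C1r had log2 fold changes of 1.27 (adjusted p = 0.0553) and 0.65 (0.240). Several marker sums were also highest in IANX 2, such as those of macrophages and of Schwann cells (3889, 14600 and 8432 CPM in IANX 1, 2 and 3). So was the fibroblast marker Dcn, with 914, 3497 and 855 CPM. The part of any of these cell types in the Serping1 level of IANX 2 was not tested.

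Serpinf1 encodes pigment epithelium-derived factor, a secreted serpin without inhibitory activity that is known for effects on neurons and blood vessels. It had 1033, 391 and 228 CPM in IANX 1, 2 and 3, and 282, 185 and 161 CPM in Sham 1, 2 and 3. IANX 1 was far above the rest, and IANX 3 lay within the Sham range. The log2 fold change of 1.40 (SE 0.537) was not called (adjusted p = 0.0799), and it was called without IANX 3 (1.76, 0.0331) but was 0.57 without IANX 1 (0.227).

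**Figure D4:**
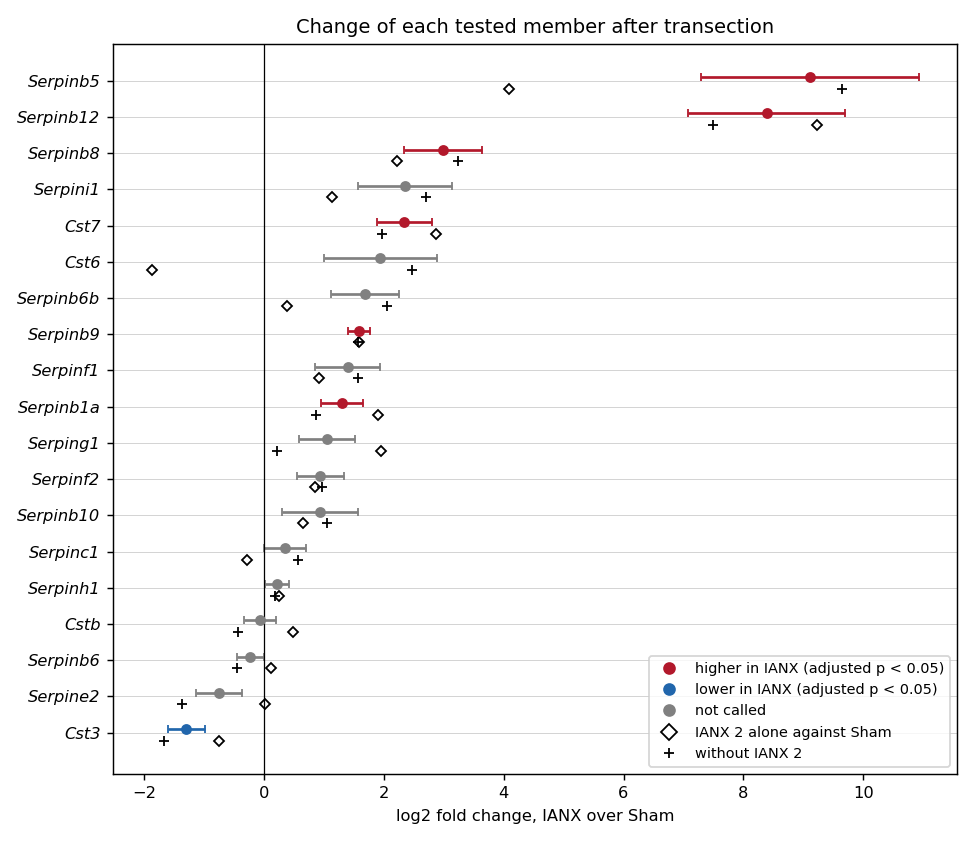
Log2 fold change of IANX over Sham for the 19 tested members (circles, bars are ± SE; red higher, blue lower, grey not called), with the value for IANX 2 alone (diamonds) and without IANX 2 (crosses). Serpinb9 stood at 1.59 with an SE of 0.186, while Cst6 stood at 1.94 over all libraries and at -1.87 in IANX 2 alone.

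The 16 members with counts but too few to pass the filter were mostly at the limit of detection. Those with counts in IANX and none in Sham were Serpinb3a, Serpinb2, Serpinb11, Serpinb3 and Serpina1f. Serpinb3a, a squamous cell serpin, had 52 counts, all in IANX 2. By the same limit of 3 counts, its ratio over the IANX libraries was 13.1 (exact interval from 10.3). Serpinb2, plasminogen activator inhibitor 2, had 16 counts in IANX and 0 in Sham, a ratio of 4.04 by that limit (exact interval from 2.92). Serpinb11 had 11 and 0 counts, a ratio of 2.77 by that limit (exact interval from 1.9). Serpinb3 had 4 and 0 counts, and Serpina1f had 1 and 0. Serpinb7 had 11 counts in IANX and 2 in Sham, a ratio of 4.16 whose counting interval (0.908 to 38.6) includes equality. Serpind1 (heparin cofactor II) had 7 and 2 counts, Serpina11 33 and 20, Serpine3 21 and 20, and Serpina1 (alpha-1-antitrypsin) 2 and 7. Csta and Serpinb1b had 0 counts in IANX and 4 in Sham, Serpina3m 0 and 2, and Cst5, Serpina7 and Serpina12 0 and 1. No count was found for Cst8, Cst11, Cst12, Cst13, Serpina3c, Serpina4, Serpina5, Serpina6, Serpina9, Serpina10, Serpinb9d, Serpinb13 or Serpini2. Many clade a serpins are plasma proteins made in liver, and of 7 hepatocyte markers, Alb, Ttr, Fga, Fgb and Apoa2 were also at or near 0 in all 6 libraries. Apoa1 had 0.396 to 0.926 CPM in IANX and 0.812 to 1.25 CPM in Sham, and Tf, the iron carrier transferrin, carried the sum of the 7, which was 139 to 252 CPM in IANX and 498 to 569 CPM in Sham.

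Many members lie side by side in gene clusters, given here by position in the rn6 build. The 10 clade b genes at chr13:26903052-27914006 (Serpinb5, Serpinb12, Serpinb13, Serpinb3a, Serpinb3, Serpinb11, Serpinb7, Serpinb2, Serpinb10 and Serpinb8) had 2295 counts in IANX and 63 in Sham, of which Serpinb5 made up 1653 and 2. Of the 4 tested, 3 rose, where 17.8% of all tested genes were called higher. All 3 (Serpinb5, Serpinb8 and Serpinb12) carry the limit on their filter given above. Their levels did not follow 1 pattern over the IANX libraries, since Serpinb12 and Serpinb3a were highest in IANX 2, Serpinb5 was lowest there, and Serpinb10 and Serpinb8 were highest in IANX 3. The 6 clade b genes at chr17:32190801-32911495 (Serpinb6, Serpinb9d, Serpinb1b, Serpinb9, Serpinb6b and Serpinb1a) had 11607 counts in IANX and 6673 in Sham. Of the 4 tested there, 2 rose, against the same 17.8% of all tested genes called higher. The 11 clade a genes at chr6:127500016-128003418 had 36 and 30 counts, and none was tested. Of the 7 cystatins at chr3:143096056-146373365, Cst3 fell and Cst7 rose.

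The promoters of 5 of the 7 called members were matched by symbol in RefSeq (GRCr8 build), and the 120 bases before each start are shown because Cst3 moved opposite to the others and so that the 5 can be compared. Capitals mark matches to the motifs searched on both strands, and no match overlapped another. The letters GGGCGG were searched as a GC box. For the TATA motif the letters were TATAAA, and for the AP-1 site they were TGANTCA. The last motif was the CCAAT box, which in Cst7 lies on the other strand.
Cst3, chr3:156793938-156794057, minus strand: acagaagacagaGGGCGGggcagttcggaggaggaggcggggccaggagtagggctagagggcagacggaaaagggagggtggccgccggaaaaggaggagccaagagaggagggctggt
Cst7, chr3:159857160-159857279, plus strand: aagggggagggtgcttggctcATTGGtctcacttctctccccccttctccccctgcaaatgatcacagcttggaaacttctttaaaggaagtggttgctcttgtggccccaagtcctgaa
Serpinb1a, chr17:31799326-31799445, plus strand: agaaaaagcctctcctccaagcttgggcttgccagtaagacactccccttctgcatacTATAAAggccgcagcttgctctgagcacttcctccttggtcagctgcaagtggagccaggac
Serpinb5, chr13:23500083-23500202, plus strand: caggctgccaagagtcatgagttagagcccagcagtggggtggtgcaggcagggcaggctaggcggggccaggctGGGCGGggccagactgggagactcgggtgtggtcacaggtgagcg
Serpinb9, chr17:31640817-31640936, minus strand: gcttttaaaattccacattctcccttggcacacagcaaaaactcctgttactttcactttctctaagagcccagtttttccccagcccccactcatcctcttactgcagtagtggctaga
Cst3 and Serpinb5 hold a GC box, Serpinb1a a TATA box and Cst7 a CCAAT box, while Serpinb9 holds none of the motifs searched. None of the 5 holds an AP-1 site. Over the same 120 bases of 33469 promoters in the table, a GC box was found in 23.7%, a TATA box in 6.66%, a CCAAT box in 19.9% and an AP-1 site in 3.01%. The bases were 65.8% G or C in Cst3 and 68.3% in Serpinb5, against 45.8% in Serpinb9. These matches are descriptions of the letters in the window. Serpinb8 and Serpinb12 were not matched in the table.

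Other families of protease inhibitors changed in both directions. Of 23 tested, 10 rose and 4 fell, where 17.8% of all tested genes were called higher and 16.6% lower. The median log2 fold change of the 23 was 0.00. A2m and Pi15 would not have passed the filter on low counts by their Sham counts alone, nor Itih3 by its IANX counts alone. Leaving out Sham 2 gave 4 that rose, and leaving out Sham 1 gave 5. Papln, a matrix protein with inhibitor domains, had 170, 11.1 and 283 CPM in IANX 1, 2 and 3 and 6.70, 8.66 and 7.46 CPM in Sham (log2 fold change 4.34, adjusted p = 0.0155). A2m, the general protease trap alpha-2-macroglobulin, was highest in IANX 2, with 4.47, 27.7 and 5.10 CPM in IANX and 0.276, 0.916 and 1.70 CPM in Sham (3.68, adjusted p = 0.0213). Spint1, an inhibitor of matriptase, rose by 3.04 (adjusted p = 0.0124), Slpi, an inhibitor of neutrophil elastase, by 2.69 (0.0185) and Cd109, a relative of A2m, by 2.66 (0.00278). Wfdc2 (1.52, 0.0117), Tfpi2 (1.58, 0.0336), Pi15 (2.92, 0.00533) and Tfpi (0.83, 0.00950) rose as well. Those that fell were Pebp1 (-1.28, 0.00438), the metalloprotease inhibitors Timp3 (-1.10, 0.00838) and Reck (-0.97, 0.0112), and Itih3 (-1.87, 0.0490). Spint2 passed over all libraries (1.51, 0.0449), but its groups overlapped, with 132, 45.9 and 212 CPM in IANX and 44.5, 50.3 and 41.8 CPM in Sham, it was called in no leave-out but that of IANX 2, and IANX 2 alone stood at 0.03 (0.936). The calls of Wfdc2, Pi15, Cd109, Tfpi, Pebp1, Timp3 and Reck held without any 1 library. The others were lost without 1 library or more: Papln without any Sham library, A2m and Slpi without Sham 1 or Sham 2, Spint1 without Sham 2, Tfpi2 without IANX 2 or any Sham library, and Itih3 without any library but IANX 3.

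**Figure D5:**
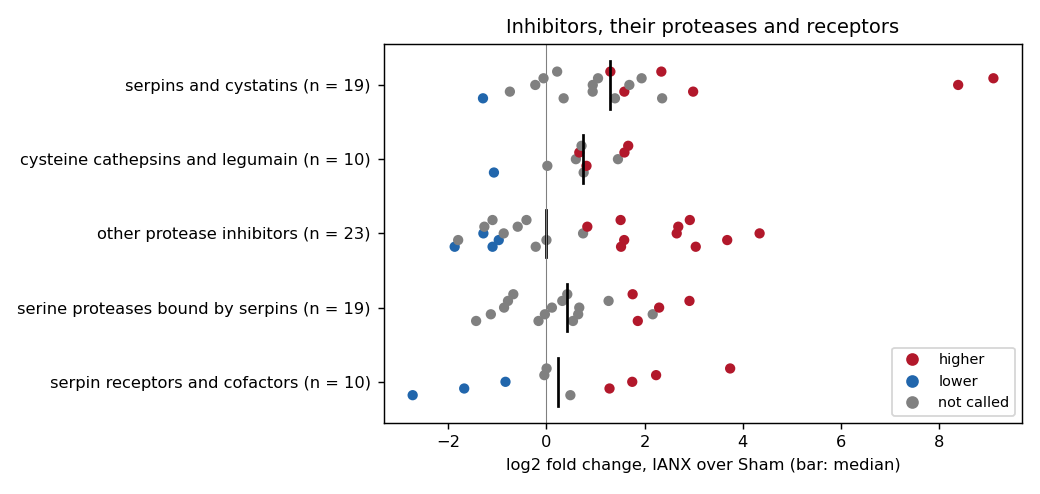
Log2 fold change of IANX over Sham for each tested gene of 5 lists (red higher, blue lower, grey not called), with a black bar at the median. The median was 1.30 over the 19 serpins and cystatins, 0.74 over 10 cysteine proteases and 0.43 over 19 serine proteases. It was 0.25 over 10 receptors and cofactors and 0.00 over 23 other inhibitors. Lists hold genes that passed the filter on low counts through 1 group only, so the medians are not read as differences between lists.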

How the data were processed

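Nerves of 3 IANX and 3 Sham rats were profiled by bulk RNA-seq on day 14. The authors made poly-A libraries, aligned the paired reads with HISAT2 2.0.5 to rn6, assembled further transcripts with StringTie 1.3.3b and ran featureCounts 1.5.0-p3, and deposited whole-number read counts for 34106 genes. The deposited FPKM are these counts divided by the gene length and by 1 library size per sample, which is not the column total. The table also holds 5 columns of the authors' own comparison with DESeq2 1.20.0 (group means, log2 fold change, p and adjusted p), which were not used. Whether counting used strand, and how multiply aligned reads were handled, is not given in the sources used here.

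Genes were kept by filterByExpr (minimum count 10; 15374 genes), normalized by TMM and compared with glmQLFit and glmQLFTest of edgeR 4.0.16 in R 4.3.3, IANX against Sham, two-sided, with p-values adjusted by Benjamini-Hochberg over the tested genes. A call needs an adjusted p under 0.05. SE were obtained from the estimate and its F statistic. Levels of members were compared with each other by FPKM, while marker sums are in CPM. Ratios of counts carry exact binomial 95% intervals, and these and the limit of 3 counts over a group cover counting error only. Each p-value weighs the difference between the groups against the spread between these samples, which edgeR estimates with information from the other genes. Gene IDs and positions are from the table, and promoter sequences are from RefSeq (GRCr8), where 38 of the 48 members were matched.

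The members, the gene lists, the tests and the alternatives were chosen with earlier results of these data known. 1 gene that the name rule also finds is not reported here and is left out of the counts and sums over members. All other members were named; full values were given for called members over 2-fold, the 5 highest by mean FPKM, and members not called whose IANX libraries spread over 10-fold. Of each other list, up to 6 called genes averaging 5 CPM or more were named, and the others named were chosen after their values were seen. Other settings tried were DESeq2 1.42.0 as the test, RLE size factors or plain library sizes in edgeR, keeping genes with low counts, a block for the replicate number, leaving out each sample, and IANX 2 alone against Sham, whose spread comes from the Sham samples only.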

Additional observations from a re-analysis of the deposited data

How the results depend on the processing

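With 3 samples in each group, calls near the threshold turned on single libraries. Scaling by library sizes only moved the median gene to a log2 fold change of 0.53, against 0.08 with TMM, and gave 5919 genes higher and 1468 lower, so that 80.1% of calls were higher, against 51.7% with TMM. Under it, 12 members, 8 cysteine proteases and 8 serine proteases were higher and 2 of the other protease inhibitors were lower, and Cstb (0.383) and Serpinb6 (0.22) turned positive, both below that shift of the median. DESeq2 called 9 members higher and 1 lower, and 7 of the other inhibitors lower. With IANX 2 alone, 7 members were higher and 1 lower, 9 cysteine proteases were higher and 0 lower, and 7 serine proteases were higher. There the log2 fold changes of Cst6 (-1.87), Cstb (0.481), Serpinb6 (0.119), Serpinc1 (-0.276) and Serpine2 (0.0197) turned sign, and the cause was not tested.

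Leaving out 1 library gave 3 to 9 members higher and 0 to 3 lower, and a log2 fold change of Cstb from -0.436 to 0.128. It gave 0 to 5 cysteine proteases higher, 4 to 10 other inhibitors higher and 3 to 7 lower, 2 to 6 serine proteases higher and 0 to 4 lower, and 2 to 4 receptors and cofactors higher and 1 to 3 lower. Over all genes it gave 1133 to 3489 higher and 1578 to 3401 lower. Without IANX 2 gave the most calls over all genes in both directions, and without Sham 3 the fewest.

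Samples share only a number: the deviations of same-numbered IANX and Sham samples correlated at 0.0858, -0.0144 and 0.0753, and IANX 2 correlated best with Sham 3 (0.0465). With the replicate block, 6 members were higher and 1 lower, where Serpinb1a was no longer called (adjusted p = 0.0556) and Serpinf1 was (0.0402), 2 cysteine proteases were higher and 1 serine protease was lower. With RLE size factors, or with no filter on low counts, 6 members were higher and 1 lower, and each of the 19 tested members kept its direction and side of the threshold. Members below the filter on low counts were left out of the main test, and none of them was called with no filter.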

Other observations

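The name rule leaves out relatives of both families, which were chosen here after their values were seen. Agt, which encodes angiotensinogen, a serpin by structure and the source of angiotensin, had 1.75, 8.33 and 2.49 CPM in IANX 1, 2 and 3, against 5.80, 11.5 and 5.98 CPM in Sham 1, 2 and 3. The groups overlapped through IANX 2, and the log2 fold change of -0.88 was not called (adjusted p = 0.294). An assembled gene on chromosome 11 that the table annotates with a cystatin domain, like the kininogens, had 60, 70 and 19 counts in IANX 1, 2 and 3, and 2, 7 and 3 counts in Sham 1, 2 and 3. Its IANX libraries were all above Sham, with a log2 fold change of 3.15 (SE 0.708, adjusted p = 0.0144). The call was lost without Sham 1 (0.0520) or Sham 3 (0.0613). By its Sham counts alone, this gene would not have passed the filter on low counts. Another assembled gene, annotated in the table as like Serpinb1a and near it on chromosome 17, had 14, 24 and 14 counts in IANX and 17, 13 and 8 counts in Sham, and was not called (adjusted p = 0.952).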
